A study of Mus musculus with 4 samples.

Results

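Forkhead genes encode transcription factors that share the winged-helix DNA-binding domain. The 10 described here were chosen by symbol, as family members known from epithelium or from the mesenchyme beneath it: Foxa1, Foxa2, Foxe1 and Foxq1, and Foxf1, Foxf2, Foxl1, Foxc1, Foxc2 and Foxd1. All 10 were found among the 24453 genes in the deposited tables. RNA was read from cells of the tongue lining of mouse embryos on embryonic day 16, sorted by an antibody to EpCAM, an adhesion molecule of epithelial cells, after the rear of the tongue with its circumvallate papilla had been cut away. Of the 4 libraries, 2 were labelled Ring1a/b 2KO, with the genotype Ring1a-/- Ring1bfl/fl K14-Cre+, and 2 were labelled control, with no further allele given. Ring1a is deleted in the germline in the 2KO embryos, whereas Ring1b is cut only in cells in which the Krt14 promoter drives Cre. Both genes, Ring1 and Rnf2 in the tables, encode catalytic subunits of Polycomb repressive complex 1, and setting 2KO against control addresses the role of the complex in tongue epithelium. Whether the 2 libraries of a genotype were made from different embryos is not in the labels, so a p-value here reflects only how far libraries spread, which may be technical.

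FoxA proteins are pioneer factors, able to bind closed chromatin, in epithelia that derive from endoderm. FoxF and FoxL1 proteins act in mesenchyme that lies under an epithelium, where Hedgehog ligands made by the epithelium switch several of them on. Many genes of this family stand in small clusters and, in tissues that do not use them, carry the histone marks laid down by Polycomb complexes.

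The 2KO libraries held 18039767 and 20545262 counts and the control libraries 20624055 and 16256569. Counts of the ribosomal RNA precursor Rn45s made up 22.9% and 20.2% of each 2KO library, against 16.7% and 15.3% of each control library. The targeted genes were not lower in the libraries labelled 2KO: Ring1 stood at 16.8 and 15.0 CPM (counts scaled to library size), against 9.02 and 8.57 CPM in control. Rnf2 stood at 62.9 and 62.4 CPM in the 2KO libraries and at 34.0 and 51.3 CPM in control. Neither difference passed the test (edgeR, adjusted p = 0.101 and 0.126; Rnf2 was called higher without control replicate 2, adjusted p = 0.00853), and counts over a whole gene cannot show the loss of a part of it, so directions below are those of the libraries as labelled. Control replicate 2 stood apart in skeletal muscle markers, whose 8 genes summed to 386 CPM there, against 60.2 CPM in control replicate 1 and 63.7 and 78.2 CPM in the 2KO libraries. Of the defining epithelial markers, Epcam was at 216 and 245 CPM in the 2KO libraries and at 221 and 189 CPM in control, and Trp63, Krt5 and Krt14 were present in every library.

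The promoters of 5 of the 10 genes (Foxa1, Foxa2, Foxc1, Foxd1 and Foxf2) were matched in RefSeq's windows of 300 bases, 250 before and 50 after the start of transcription (GRCm38.p6, the assembly of the mm10 build). Polycomb complexes are known for binding promoters rich in CpG, so the windows of 4 genes are shown with each CpG in capitals. Foxd1, Foxf2 and Foxc1 are shown for their low or middling control levels and Foxa1 for the top level among the 10. Each reads 5′ to 3′ along the gene's strand.
Foxd1: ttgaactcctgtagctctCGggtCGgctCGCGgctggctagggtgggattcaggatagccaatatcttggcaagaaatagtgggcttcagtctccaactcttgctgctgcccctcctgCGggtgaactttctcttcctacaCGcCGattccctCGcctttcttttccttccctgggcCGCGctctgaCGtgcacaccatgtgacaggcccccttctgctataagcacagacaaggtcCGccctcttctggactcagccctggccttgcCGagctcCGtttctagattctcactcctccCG
Foxf2: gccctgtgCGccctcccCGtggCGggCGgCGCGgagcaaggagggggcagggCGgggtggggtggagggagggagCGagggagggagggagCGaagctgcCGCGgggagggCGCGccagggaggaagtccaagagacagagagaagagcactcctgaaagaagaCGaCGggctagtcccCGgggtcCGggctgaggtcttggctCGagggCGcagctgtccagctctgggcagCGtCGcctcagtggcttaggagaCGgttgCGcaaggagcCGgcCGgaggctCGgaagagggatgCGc
Foxc1: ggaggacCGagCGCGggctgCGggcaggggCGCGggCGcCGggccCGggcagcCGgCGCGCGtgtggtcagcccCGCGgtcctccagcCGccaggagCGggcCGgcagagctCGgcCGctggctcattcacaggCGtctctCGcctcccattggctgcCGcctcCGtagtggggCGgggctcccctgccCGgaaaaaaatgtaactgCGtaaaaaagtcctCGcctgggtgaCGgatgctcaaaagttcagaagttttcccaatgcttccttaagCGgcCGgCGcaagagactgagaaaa
Foxa1: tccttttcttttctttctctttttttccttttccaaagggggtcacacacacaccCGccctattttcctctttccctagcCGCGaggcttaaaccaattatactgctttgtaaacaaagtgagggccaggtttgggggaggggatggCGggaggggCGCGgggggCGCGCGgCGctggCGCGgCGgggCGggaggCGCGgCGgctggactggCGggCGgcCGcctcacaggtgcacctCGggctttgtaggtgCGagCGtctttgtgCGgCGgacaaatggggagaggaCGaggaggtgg
The Foxd1 window is chr13:98353995-98354294 (plus strand), the Foxf2 window chr13:31625566-31625865 (plus strand), the Foxc1 window chr13:31806396-31806695 (plus strand) and the Foxa1 window chr12:57546062-57546361 (minus strand). Foxc1 held 32 CpG, Foxf2 27, Foxa1 26 and Foxd1 15, against a median of 7 over 32807 windows of the same length. The 3 windows of Foxa2 held 12, 13 and 23 CpG. All 7 windows thus held more CpG than the median window, both at the highly expressed Foxa1 and at Foxd1, which was nearly silent in control. The excess was uneven. By CpG among all windows, Foxc1, Foxf2 and Foxa1 were at percentiles 90.5, 84.5 and 83.1. Foxd1 was only at percentile 65.4, and the windows of Foxa2 at 60.4, 62.1 and 78.5.

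Letters of known motifs were then sought in the windows on both strands. The forkhead core TGTTTAC was found once, in Foxa1 at base 110 of the window, and is present in 3.65% of all windows. The GLI core GACCACCCA, the site of the Hedgehog effectors, was in none of the 7 windows and in 0.25% of all. The CCAAT box was in the windows of Foxa1, Foxd1 and Foxc1 and in 1 of 3 of Foxa2, against 37.4% of all windows, and the TATAAA box in 1 window of Foxa2, against 13.62% of all. No match overlapped another motif. These matches describe the letters and no more.

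By level the genes ranged from clearly present in the control epithelium to close to absent, with Foxf2 in between. Levels between genes are given as FPKM, the authors' fragment counts scaled to length and depth. In control, 5 genes reached 1 FPKM in both libraries: Foxa1, Foxe1, Foxq1, Foxa2 and Foxc1. Foxf2 reached it in 1 of 2 control libraries, Foxf1, Foxd1 and Foxc2 in neither, and Foxl1 was listed at 0 in both. The same 5 genes passed when TMM-scaled counts were divided by annotated exon length instead. In the order of control means, 6 of 9 neighbouring pairs had FPKM values that did not overlap, and the 3 pairs that overlapped were Foxf2 with Foxf1, Foxf1 with Foxd1 and Foxd1 with Foxc2. In the 2KO libraries the first 5 places were unchanged and Foxf1 and Foxd1 stood above Foxf2, but Foxa2 overlapped Foxc1, Foxf1 overlapped Foxc1 and Foxd1 overlapped Foxf2.

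**Figure D1:**
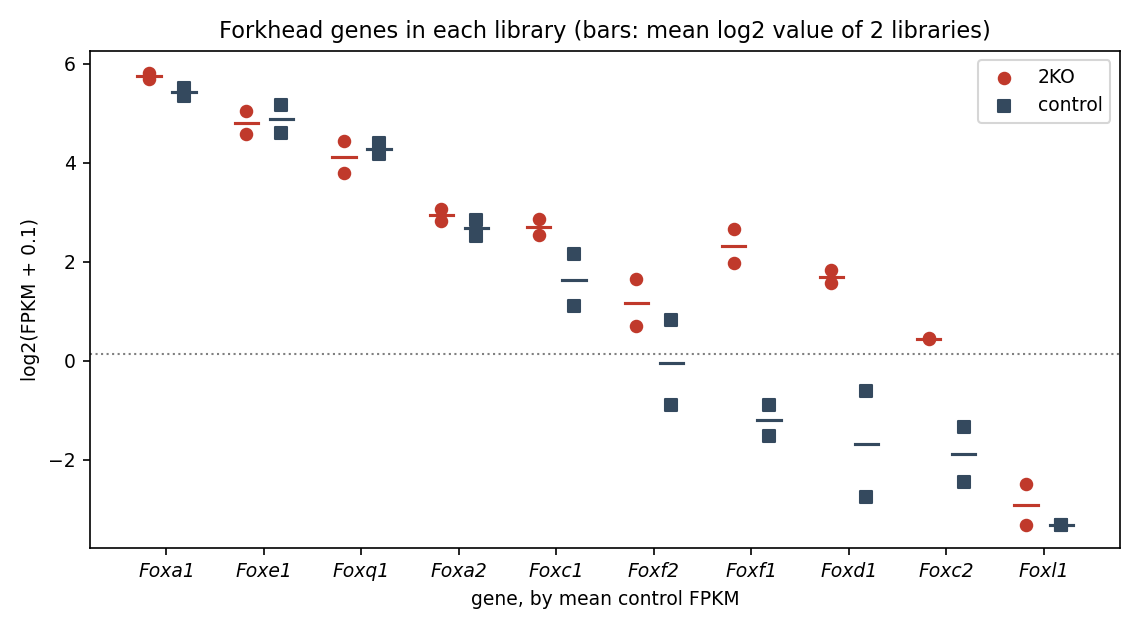
FPKM of each of the 10 forkhead genes in each library, as log2(FPKM + 0.1), with 2KO libraries as circles and control libraries as squares; short bars are the mean log2 value of the 2 libraries and the dotted line marks 1 FPKM. Foxa1, Foxe1, Foxq1, Foxa2 and Foxc1 lie above the line in all 4 libraries, while Foxf1, Foxd1 and Foxc2 lie above it in both 2KO libraries and below it in both control libraries.

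The test of 2KO against control was fitted on all genes with edgeR's quasi-likelihood method, and a gene was called at a Benjamini-Hochberg adjusted p under 0.05 over 15336 genes tested. Of the 10 forkhead genes 9 were tested, and 1, Foxf1, was called, in the direction of 2KO. That is 11.1% of those tested, beside 11.9% of all genes tested (7.00% higher and 4.92% lower in 2KO), so the share called among them is near the background. At an unadjusted p under 0.05 there were 5 of 9, beside 27.7% of all genes tested. The median log2 fold change of the 9 was 0.92, against 0.0065 over all genes tested, and 8 of the 9 were positive. With an offset for GC content and transcript length each of the 9 values was lower and 7 were positive. Foxa2 was then at 0.013, Foxc1 at 0.40 and Foxq1 at -0.61, while Foxf1 was at 3.63. The median over all genes moved to -0.166 with that offset. In CPM both 2KO libraries lay above both control libraries for 8 of 9, against 29.0% of genes tested (57.7% did not overlap in either direction), and both lay below for none. In FPKM both lay above for 5 of 9, against 31.5% of genes that passed a filter on FPKM (55.2% in either direction). The 9 include Foxc2 and Foxd1, which passed the filter on counts only with their 2KO libraries. The median and the shares above are therefore no support for a rise of the 10 as a set.

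The tested genes were then split by control level. Control is also the denominator of the fold change, so greater values among genes low in control are in part built in. The 5 genes at 1 FPKM or more in both control libraries had log2 fold changes of -0.11 to 0.92 with a median of 0.40. The 4 tested genes under that level had values of 1.20 to 3.87 with a median of 3.09. Genes of low control level as a whole lay higher too: the median over 4182 such genes was 0.63 with 10.3% called higher, against -0.10 and 5.75% over 11154 genes above the level. Foxc2 reached the filter's 0.518 CPM in no control library and Foxd1 in 1 of 2, whereas both reached it in both 2KO libraries. The filter asked for that level in 2 libraries, so control counts alone would have brought neither gene into the test. Each entered it through the group in which it was high. A gene low in both groups is left out by that filter, and its part in the medians of the low genes was not tested, so those medians support nothing here.

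Foxf1, a factor of lateral plate mesoderm and of the mesenchyme around gut and lung, was the gene that rose. It is on chromosome 8 (121084386 to 121088144, plus strand, mm10, as are all gene coordinates here), with 2 exons. It had 137 and 263 counts in the 2KO libraries and 11 and 15 in control. In FPKM these were levels of 3.82 and 6.24 in 2KO and of 0.251 and 0.441 in control. The groups stood far apart, with the lower 2KO library several times above the higher control library. The mean was 10.4 ± 3.71 CPM in 2KO and 0.710 ± 0.241 CPM in control (SD, n = 2 each), a 14.6-fold difference (log2 fold change 3.87, standard error 0.595, edgeR adjusted p = 0.00225). The difference was positive in both 2KO libraries and stayed between 3.44 and 4.26 on the log2 scale when any 1 library was left out, with edgeR adjusted p of at most 0.00803. On log2(FPKM + 1) with no filter on low values, where no gene of any kind was called, its adjusted p was 0.0950 (limma). Among all genes with a count, Foxf1 went by mean FPKM to the 56.5th percentile in 2KO, against the 29.2nd in control.

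Foxd1, known from the stromal progenitors of the kidney and from the retina, showed the next greatest difference of the 10 and fell just short of the test. The gene (chromosome 13, 98354242 to 98359305, plus strand, 1 exon) had 70 and 87 counts in the 2KO libraries and 14 and 1 in control. The 2KO libraries were close together and the control libraries were not, at 2.88 and 3.45 FPKM in 2KO and 0.556 and 0.0491 FPKM in control. Its log2 fold change was 3.42 (standard error 1.02, edgeR adjusted p = 0.0523). It was called under 6 of 16 other settings, among them DESeq2 (adjusted p = 0.00785), the replicate block (adjusted p = 0.0461) and the fit without control replicate 1. Without that library the edgeR log2 fold change was 6.0 (adjusted p = 0.00122), and without control replicate 2 it was 2.59 (adjusted p = 0.0638).

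Foxc2, a factor of lymphatic vessels and their valves, was likewise near absent in control. It is on chromosome 8 (121116171 to 121118895, plus strand, 1 exon) and had 34 and 40 counts in the 2KO libraries and 9 and 2 in control. Levels were 1.27 and 1.26 FPKM in 2KO and 0.295 and 0.0842 FPKM in control, without overlap. With counts of each group summed and divided by its summed scaled library sizes, the ratio was 6.66. Its 95% interval of 3.51 to 13.9 covers counting error only. The log2 fold change of 2.76 had a standard error of 1.11 and did not pass (edgeR adjusted p = 0.132). No alternative setting called it, with adjusted p from 0.0743 to 0.443, and its log2 fold change was 4.0 without control replicate 1 and 2.14 without control replicate 2.

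Foxl1, a marker of the mesenchymal cells that lie against gut epithelium, was all but undetected. It had 0 and 4 counts in the 2KO libraries and 0 and 0 in control and was not tested. A count of 0 allows up to 0.170 CPM in 2KO replicate 1 and up to 0.147 and 0.176 CPM in control replicates 1 and 2. Expression of Foxl1 was thus not detectable at this depth in 3 of 4 libraries.

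Foxf1, Foxc2 and Foxl1 stand in that order along chromosome 8, with starts 31.8 and 11.8 kb apart. Within this short interval Foxf1 was called, Foxc2 was not called at a log2 fold change of 2.76, and Foxl1 stayed near 0 and was not tested. Mthfsd, which lies between Foxf1 and Foxc2, was at a log2 fold change of -0.11 (standard error 0.447, edgeR adjusted p = 0.904). The long non-coding RNA Fendrr starts at -1.28 kb from Foxf1 on the other strand. It had 46 and 33 counts in the 2KO libraries and 36 and 2 in control, which overlap (log2 fold change 1.15, standard error 1.12, adjusted p = 0.557). Neither neighbour nearest to Foxf1 thus passed the test that Foxf1 passed. Whether the fold changes of these neighbours, or that of Foxc2, differ from that of Foxf1 was not tested.

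Over both clusters, 14 other genes that start within 500 kb of a member were in the tables, 8 were tested and 1 was called, which is 12.5% and near the 11.9% of all genes. This was Irf8, an interferon regulatory factor best known from macrophages, whose start lies at -348 kb from that of Foxf1. Irf8 had 235 and 373 counts in the 2KO libraries and 24 and 2 in control (log2 fold change 4.56, standard error 0.715, edgeR adjusted p = 0.00248). The 12.5% rests on Irf8, which was at 0.117 CPM in control replicate 2, under the filter's 0.518 CPM. Like Foxd1, Irf8 thus entered the test only with its 2KO libraries, the group in which it was high. Its value rests on the control libraries, at 7.02 without control replicate 1 and 3.75 without control replicate 2, and it was called in both cases. Of the 6 blood and immune markers listed, 5 were in the tables, and they summed to 52.4 and 43.7 CPM in the 2KO libraries, against 23.5 and 16.2 CPM in control. Cd68 made up most of that sum and was called higher (adjusted p = 0.0123), the pan-leukocyte marker Ptprc was at 0.170 and 0.148 CPM in 2KO and at 0.0490 and 0.587 CPM in control, and Hba-a1 had 0 counts in all 4 libraries but 13.7 and 39.3 FPKM in 2KO and 14.6 and 39.1 FPKM in control, so counts do not measure red blood cells here. The part of such cells in the Irf8 result was not tested.

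**Figure D2:**
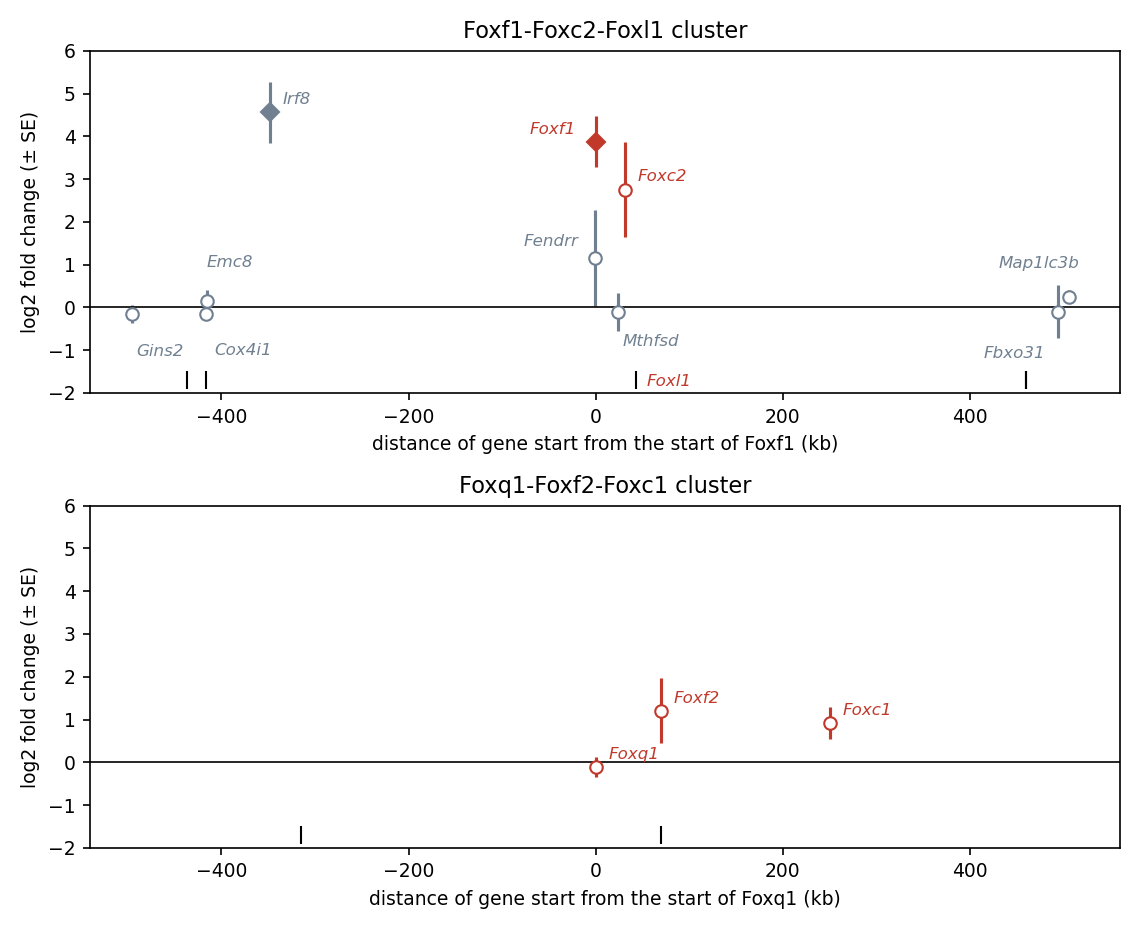
Log2 fold change of 2KO over control, with its standard error, against the distance in kb of each gene's start from the first forkhead gene, for the Foxf1 cluster (top) and the Foxq1 cluster (bottom). Forkhead genes of the clusters are red and other genes grey, filled diamonds mark adjusted p under 0.05, and ticks at the foot mark genes with too few counts to test. Foxf1 and Irf8 are the called genes, while Mthfsd, between Foxf1 and Foxc2, lies at -0.11.

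The cluster of Foxq1, Foxf2 and Foxc1 on chromosome 13 held 1 gene with a high control level and a pair of lower ones, and none was called. Foxq1 (31556134 to 31560976, plus strand), which is needed for the inner structure of the hair shaft in the mouse, was at 21.6 and 13.7 FPKM in 2KO and at 18.1 and 21.0 FPKM in control. The groups overlapped. Its mean was 33.7 ± 9.18 CPM in 2KO and 36.3 ± 3.36 CPM in control (SD, n = 2 each; log2 fold change -0.11, standard error 0.241, edgeR adjusted p = 0.813). Without 2KO replicate 2 the sign turned, to 0.14. Exons of the antisense gene A530084C06Rik cover 3200 of the 4843 exon bases annotated for Foxq1, so its values are uncertain to that extent.

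Foxf2, a factor of palate and gut mesenchyme, starts 69.7 kb beyond Foxq1, at 31625816 (end 31631403, plus strand). It had 47 and 111 counts in the 2KO libraries and 20 and 44 in control. Within each genotype the replicates differed about as much as the genotypes did, at 1.52 and 3.05 FPKM in 2KO and 0.436 and 1.66 FPKM in control. The log2 fold change was 1.20 (standard error 0.759, edgeR adjusted p = 0.342). No setting called it, and leaving out 1 library moved it between 0.58 and 2.05. Foxf2 and Foxf1, close relatives in sequence and in role, thus stood on different sides of the test, but the difference between their fold changes was not tested.

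Foxc1, a factor of the eye, the vessels and quiescent hair follicle stem cells, lies 181 kb further along (31806633 to 31812476, plus strand). It had 309 and 450 counts in the 2KO libraries and 134 and 247 in control. Both 2KO libraries were above both control libraries, at 5.76 and 7.20 FPKM against 2.05 and 4.39 FPKM in control. The log2 fold change was 0.92 (standard error 0.374, edgeR adjusted p = 0.135). Leaving out control replicate 2 brought it to 1.6 and past the test (adjusted p = 0.00184), whereas leaving out control replicate 1 brought it to 0.48 (adjusted p = 0.357). The library with more Foxc1 and Foxf2 among the controls was replicate 2, the one rich in skeletal muscle markers. The 12 mesenchyme markers also summed higher there, at 355 CPM against 282 CPM in control replicate 1. Col1a1, Pdgfra, Prrx1 and Thy1 were among those higher in replicate 2, and Dcn, Col3a1, Lum and Dpt among those lower. The part of other cells in the Foxc1 and Foxf2 values was not tested.

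Foxa1 was the most abundant of the 10 in every library. This pioneer factor of endodermal and glandular epithelia (chromosome 12, 57540628 to 57546916, minus strand) was at 56.0 and 51.4 FPKM in 2KO and at 45.5 and 40.7 FPKM in control. Both 2KO libraries were higher, by a modest margin. The mean was 147 ± 3.11 CPM in 2KO and 110 ± 9.03 CPM in control (SD, n = 2 each), a log2 fold change of 0.42 that did not pass (standard error 0.158, edgeR adjusted p = 0.109). No setting called it, with values of 0.12 to 0.53, the lowest with an offset for GC content and transcript length.

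Its paralog Foxa2, which acts with Foxa1 in foregut and lung, was lower by several fold per length. Foxa2 (chromosome 2, 148042877 to 148046969, minus strand) stood at 7.02 and 8.31 FPKM in 2KO and at 5.66 and 7.12 FPKM in control, which overlap. The log2 fold change was 0.37 (standard error 0.326, edgeR adjusted p = 0.513).

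Foxe1, needed for the thyroid and the palate, was the one gene for which the deposited measures went opposite ways. It is on chromosome 4 (46343609 to 46346412, plus strand, 1 exon). In counts it had 284 and 266 in the 2KO libraries and 220 and 195 in control, a log2 fold change of 0.40 (standard error 0.308, edgeR adjusted p = 0.450). In FPKM it was at 32.8 and 23.9 in 2KO and at 24.3 and 35.7 in control, a difference of -0.07 on log2(FPKM + 1) (limma adjusted p = 0.892). Neither direction passed a test. The CPM that went with 1 FPKM of Foxe1 was 0.480 and 0.543 in the 2KO libraries and 0.439 and 0.336 in control. That 1.62-fold range was wider than for 98.3% of well counted genes (at least 100 counts and 1 FPKM in all 4 libraries), and for the other 8 tested forkhead genes it was 1.05 to 1.36. In control Foxe1 ranked 2 by FPKM but 4 by CPM per kb of its 2.80 kb of annotated exon. Its place beside Foxq1 and Foxa2 hence depends on the measure.

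The genes nearest to each forkhead gene in FPKM over the 4 libraries were found by Euclidean distance of log2(FPKM + 0.1), as a description of level and pattern alone. Foxf1 lay nearest to Shank3 (distance 0.688) and Sorcs3 (0.701), and Foxd1 to Dab1 (0.637) and Mlxipl (0.760). Foxc2 lay nearest to Loxl1 (0.291) and Ddx25, Foxc1 to Igsf9b (0.264) and Fat4, and Foxf2 to Sema5b and Rgs16. Among the genes of higher level, Foxa1 lay nearest to Hnrnph3 (0.109) and Ccar1, Foxa2 to Slc15a4 and Gprasp1, Foxe1 to Mrpl20 and Dctn4, and Foxq1 to Ccdc115 (0.102) and Aqr.

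The rest of the forkhead family was set beside the 10. Of 34 other members in the tables, 22 were tested, 4 were called higher and none lower, which is 18.2% against 11.9% of all genes tested, and their median log2 fold change was 0.31. Among them, Foxp4 was at 291 and 255 CPM in 2KO and at 135 and 132 CPM in control (log2 fold change 1.04, adjusted p = 0.00171). Foxo3 and Foxo4, factors restrained by insulin signalling, had log2 fold changes of 0.87 and 1.25 (adjusted p = 0.00628 and 0.0385), and Foxo4 was not called without 2KO replicate 1, 2KO replicate 2 or control replicate 2 (adjusted p = 0.0755, 0.216 and 0.0539). With the offset for GC content and length, Foxp4, Foxo3 and Foxo4 were not called, and Foxk1, Foxm1, Foxn1 and Foxo6 were called lower. Foxj2, Foxj3, Foxk2 and Foxo1, all well expressed, had log2 fold changes of 0.17 to 0.24, and Foxk1, Foxm1, Foxn2 and Foxn3, also well expressed, of -0.36 to -0.27. None of these was called, and Foxd3 and Foxl2, near silence in control, had 2.95 and 3.31 and were not called either.

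**Figure D3:**
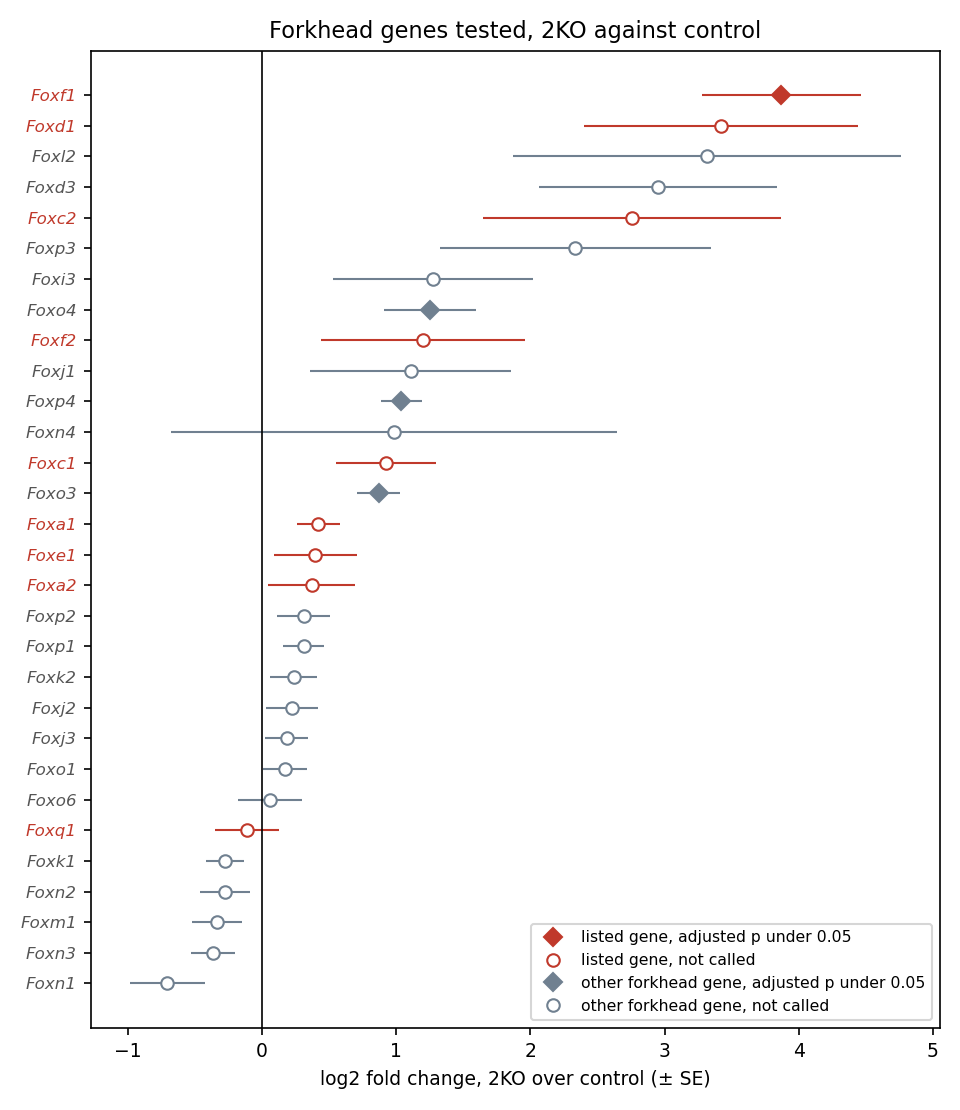
Log2 fold change of 2KO over control with its standard error for forkhead genes tested, ordered by value, with the 9 of the 10 genes that were tested in red and the others in grey. Filled diamonds are genes at adjusted p under 0.05. Foxf1 is the called gene among the red ones, at 3.87, and Foxq1 the one below 0.

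Hedgehog signalling, which acts upstream of several of these genes in other tissues, was read from 18 genes, 17 of them tested. Of these 4 were called higher and none lower, or 23.5% against 11.9% of all genes, and the median log2 fold change was 0.40. Among the called genes were Gli1, the effector that is itself a target (log2 fold change 1.55, edgeR adjusted p = 0.00170), the receptor Ptch1 (0.79, adjusted p = 0.0245), and the co-receptor Gas1 (1.29, adjusted p = 0.0288). Gli1 stayed called under every setting but the unfiltered FPKM fit, in which nothing was called. The ligand Shh was at 15.1 and 20.1 CPM in 2KO and at 12.2 and 9.39 CPM in control (adjusted p = 0.167). Hhip, Ihh, Cdon and Boc lay the other way, with CPM of both 2KO libraries below both controls, and were not called. Shh, Dhh, Gli2, Gli3, Sufu and Disp1, also not called, lay above in both, as did the called genes. Over all genes tested the groups did not overlap for 57.7%, with 2KO above for 29.0%, so such separation is common. Hhip was at 1.76 and 3.66 CPM in 2KO and at 4.31 and 5.87 CPM in control (log2 fold change -0.90, edgeR adjusted p = 0.383). Without 2KO replicate 1, Gli1 and Ptch1 were the called genes of the list, and without 2KO replicate 2 Gli1, Gas1 and Dhh. With the GC content and length offset Gli1 was called higher and Boc and Cdon lower, and Ptch1 and Gas1 were not called (edgeR adjusted p = 0.127 and 0.101).

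Markers of other cells were read beside these results, since bulk RNA cannot tell fewer cells of a type from less RNA per cell. The 12 mesenchyme markers summed to 384 and 340 CPM in the 2KO libraries and to 282 and 355 CPM in control, an overlap, and edgeR called none of 11 tested, with 3 at an unadjusted p under 0.05, a share close to the 27.7% of all genes. DESeq2 called 1, Pdgfrb. Dcn and Col1a1 were the most abundant of them and none was at 0 in all libraries. Twist1, a mesenchymal transcription factor, was at 1.93 and 1.98 CPM in 2KO and at 0.294 and 0.293 CPM in control without passing the test (adjusted p = 0.118). Others of the list lay the other way, also without passing: Col3a1, a fibrillar collagen, was at 23.3 and 28.9 CPM in 2KO and at 40.2 and 39.1 CPM in control (adjusted p = 0.102), and Dpt at 1.53 and 1.09 CPM in 2KO and at 4.12 and 2.35 CPM in control (adjusted p = 0.314).

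The 10 endothelium markers summed to 39.5 and 66.4 CPM in the 2KO libraries and to 30.5 and 25.3 CPM in control, which did not overlap. None of the 10 was called by edgeR, and 9 had positive log2 fold changes, beside 7725 of all 15336 genes tested. The median was 1.21 and Cdh5 and Pecam1 were the most abundant. All of the list but Cdh5 were under 1 FPKM in a control library. Over 4182 such genes the median was 0.63, with both 2KO libraries above both controls in 41.1%. The signs and the median of the list are therefore no support for a rise of it as a set. Cdh5 was uneven between the 2KO libraries, at 12.5 and 29.7 CPM, against 8.53 and 9.80 CPM in control. Kdr, Tie1, Tek and Erg overlapped between the groups, with log2 fold changes of 0.09 for Kdr and -0.81 for Tek. Foxf1, Foxc1 and Foxc2 are expressed in endothelium as well, and the part of endothelial cells in their values was not tested. The 6 neural crest and Schwann cell markers summed to 99.2 and 124 CPM in 2KO and to 147 and 98.8 CPM in control. The 6 gland markers summed to 31.7 and 50.3 CPM in 2KO and to 76.8 and 81.0 CPM in control, with Muc19 called lower and Prol1 at 0 throughout. The 8 epithelium markers summed to 10898 and 11040 CPM in 2KO and to 17341 and 14732 CPM in control, with 4 called lower (Krt5, Krt14, Krt13 and Perp), and none of the defining ones was near 0.

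**Figure D4:**
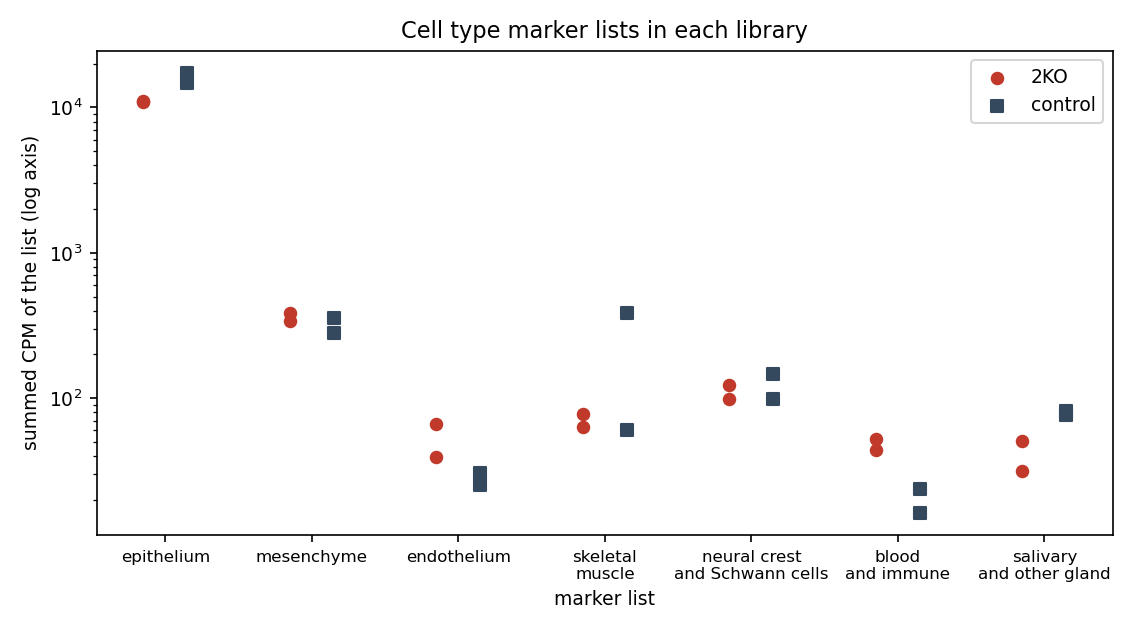
Summed CPM of each marker list in each library on a log axis, with 2KO libraries as circles and control libraries as squares. The mesenchyme sums of the groups overlap, the endothelium and blood sums are higher in both 2KO libraries, and control replicate 2 alone is high in skeletal muscle markers, at 386 CPM.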

How the data were processed

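The deposited per-library tables hold whole-number read counts per gene symbol, and a table of the whole series holds FPKM values made by the authors. The submitters' processing notes name HTSeq 0.6.1, TopHat2 2.0.13, DESeq2 1.6.3, Cufflinks 2.2.1 and the build mm10. Tool roles, gene models and strandedness were not given in the sources used here. Where genes overlap or have close copies, their reads may be shared or lost. RNA was amplified before sequencing, so reads are not independent molecules, and intervals and floors (3 counts) cover counting error only.

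Counts were fitted with edgeR 4.0.16 (R 4.3.3): TMM scaling, filterByExpr, the two-sided quasi-likelihood test of genotype on all 4 libraries, and Benjamini-Hochberg adjustment over 15336 genes. Every adjusted p is from that fit unless another tool is named. The standard error is the fold change divided by the square root of the F statistic. Alternatives were DESeq2 1.42.0, limma-voom and limma-trend (limma 3.58.1), other scalings and filters, the replicate number as a block, FPKM with pseudocounts of 1 and 0.1, a GC content and length offset and each library left out. Coordinates are from GENCODE M21 (GRCm38), to which 23755 of 24453 symbols matched directly and 277 through a synonym. On simulated data the fit recovered 24% of 100 genes changed 2-fold and 68% of 100 genes changed 4-fold. Unchanged genes made up 4.17% of its calls there. A gene that was not called may therefore still differ.

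The members, lists and tests were chosen with earlier results of these data known. Named genes are the members, Ring1 and Rnf2, up to 6 called genes of each list or else its 2 most abundant, the 2 nearest genes in FPKM pattern for members of at least 0.5 FPKM, and the 2 most abundant markers of each cell type; other genes named were chosen after their values were seen. The marker Hbb-bt was not matched in the tables. Some genes of these lists are counted but not reported here by name.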

Additional observations from a re-analysis of the deposited data

How the results depend on the processing

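Counts of calls moved with the test. Genes called numbered 1827 at first (58.7% of them higher), 2796 with no filter on low counts, 641 on log2(FPKM + 1) (74.4% higher), 564 on log2(FPKM + 0.1) (73.0% higher), 0 on unfiltered FPKM with 3764 at an unadjusted p under 0.05, 2213 with the GC content and length offset (34.4% higher) and 1405 to 2747 with 1 library left out (the highest without control replicate 1). That offset moved the median of all genes to -0.166 on the log2 scale, so its values are relative to that shift.

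Of the 10 forkhead genes, 1 was called at first, 3 without the filter on low counts, 2 under DESeq2, a filter of 1 CPM, log2(FPKM + 1) or the replicate block, 0 on unfiltered FPKM and 1 to 2 with 1 library left out. The added calls were Foxd1 and Foxc1. Of the other forkhead genes 7 were called with no filter on low counts, 2 on log2(FPKM + 0.1), 0 on unfiltered FPKM and 3 to 4 with 1 library left out. Hedgehog genes called were 1 on either filtered FPKM scale, 0 on unfiltered FPKM and 2 to 5 with 1 library left out. Of the cluster neighbours, 1 was called under each setting and 0 on unfiltered FPKM. Of the mesenchyme markers 1 was called with no filter on low counts, with DESeq2 (Pdgfrb in both) and with the GC content and length offset (Col3a1, lower), and 0 to 2 with 1 library left out.

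The uncalled difference of Foxe1 turned to -0.0715 on log2(FPKM + 1) with or without the filter, to -0.0735 on log2(FPKM + 0.1) and to -0.469 with the GC content and length offset. That of Foxq1 lay between -0.424 and 0.136 with 1 library left out. The cause was not tested.

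The replicate numbers were not shown to pair the libraries: deviations of same-numbered libraries had a correlation of -0.0232 across genes. The replicate block gave 2036 calls and changed the call of Foxd1 alone among the 10. With 2 libraries a group the spread is poorly known, and for Foxl1 and Foxc2 low counts limit the precision.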

Other observations

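The values of some forkhead genes outside the 10 were singled out after they were seen. Foxn1, the factor whose loss makes nude mice, was at 46.7 and 23.9 CPM in the 2KO libraries and at 58.1 and 57.0 CPM in control, without overlap (log2 fold change -0.71, edgeR adjusted p = 0.124). Foxd3, a factor of neural crest, had 128 counts over the 2KO libraries and 16 over control (log2 fold change 2.95, adjusted p = 0.0528), while Sox10, another neural crest factor, was at 2.67 and 6.28 CPM in 2KO and at 7.01 and 6.57 CPM in control. Foxj1, a factor of motile cilia, was at 31.0 and 2.77 CPM in the 2KO libraries and at 8.33 and 7.28 CPM in control, so 2KO replicate 1 alone was high. In GC content the transcripts of the 10 forkhead genes ranged from the 75.9th percentile of protein-coding genes (Foxa1) to the 98.8th (Foxe1).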
